A study of Mus musculus with 6 samples.

Results

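Protein disulfide isomerases (PDIs) and ERO1 oxidases were followed in HT22 cells, an immortalised mouse hippocampal line, after exposure to AA147, a small molecule whose known covalent targets in the endoplasmic reticulum (ER) are PDIs. The 10 genes were chosen by symbol: P4hb, Pdia3, Pdia4, Pdia5, Pdia6, Txndc5, Tmx1, Dnajc10, Ero1l and Ero1lb. All 10 were among the 16472 genes of the authors' deposited table, and all 10 had an adjusted p. The study sequenced mRNA from 6 libraries of this single line, with no allele or transgene named. AA147 was given to 3 of them, at a concentration that the labels write as 10 mM and that could not be checked here, and DMSO, the vehicle, to the other 3. Both groups were collected after 16 h. The labels do not say whether the 3 libraries of a group came from separate cultures, so p-values measure the spread between these libraries, which may be technical.

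PDIs are ER enzymes of the thioredoxin fold. A pair of closely spaced cysteines in each active domain forms, breaks or rearranges disulfide bonds in proteins that enter the secretory pathway. The ERO1 oxidases hand oxidising equivalents from oxygen to PDIs, above all to the protein encoded by P4hb, and the electrons they remove end in hydrogen peroxide. In many tissues transcription of these genes is raised with the chaperones of the unfolded protein response, through the factors ATF6 and XBP1.

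The deposited values are 1 line per gene, with a mean normalized count over the libraries, a log2 fold change, its standard error (SE) and an adjusted p. Values of single libraries were not analysed here, so group levels are those implied when the mean is taken as the midpoint of both groups and the fold change at face value. They carry no error of their own. The table does not name the numerator. Positive values are taken here to mean more transcript with AA147, and each direction below depends on that reading. A gene is called where the authors' deposited table lists an adjusted p under 0.05, which held for 20.2% of the 13597 genes with an adjusted p (9.05% positive and 11.1% negative). The summed means came to 30768012.

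The neuronal label was checked against 12 neuronal markers. Of these, 7 were not found in the table, among them Rbfox3, Map2 and Snap25, and 2 had a mean of at least 100, Tubb3 and Syn1. Tubb3, a neuronal tubulin, was the sole neuronal marker called, at 0.43 (SE 0.092, adjusted p 5.67e-05 by the authors' deposited table). The summed implied level of the 5 neuronal markers found was 1644 normalized counts with vehicle and 2023 with AA147. Tubb3 made up most of it, with a mean of 1199 in a summed mean of 1833. Syn1 had a log2 fold change of 0.13 (SE 0.128) and was not called. Eno2, Stmn2 and Slc17a7, each with a mean under 100, went the other way, at -0.30, -1.53 and -1.98. Of these, Eno2 was not called and the others had no adjusted p. All 4 fibroblast markers were present and abundant, and all 4 were called negative. Their summed implied level was 601278 normalized counts with vehicle and 270838 with AA147. Col1a1, a type I collagen chain, had a log2 fold change of -1.52 (SE 0.066) in the authors' deposited table. Astrocyte, oligodendrocyte and microglial markers all had a mean under 100 or were not found. The part of these marker shifts in the results below was not tested, and fewer cells of a type cannot be told apart from less RNA per cell.

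The members spanned a wide range of levels. Compared per kilobase of transcript, P4hb, which encodes the archetypal PDI and is also the beta subunit of collagen prolyl 4-hydroxylase, had the highest mean at 12937 normalized counts per kilobase. Pdia3, the PDI that works with calnexin and calreticulin on glycoproteins, followed at 10314. These 2 genes held 65.3% of the summed level per kilobase of the 10 members. Txndc5 at 3628, Pdia6 at 3247 and Pdia4 at 2067 normalized counts per kilobase formed a middle tier. Dnajc10 at 1246, Pdia5 at 1180, Tmx1 at 515 and Ero1l at 407 normalized counts per kilobase lay below them. The lowest was Ero1lb at 41.1 normalized counts per kilobase, so Ero1l was 9.92 times as abundant as its paralog and P4hb 315 times.

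**Figure D1:**
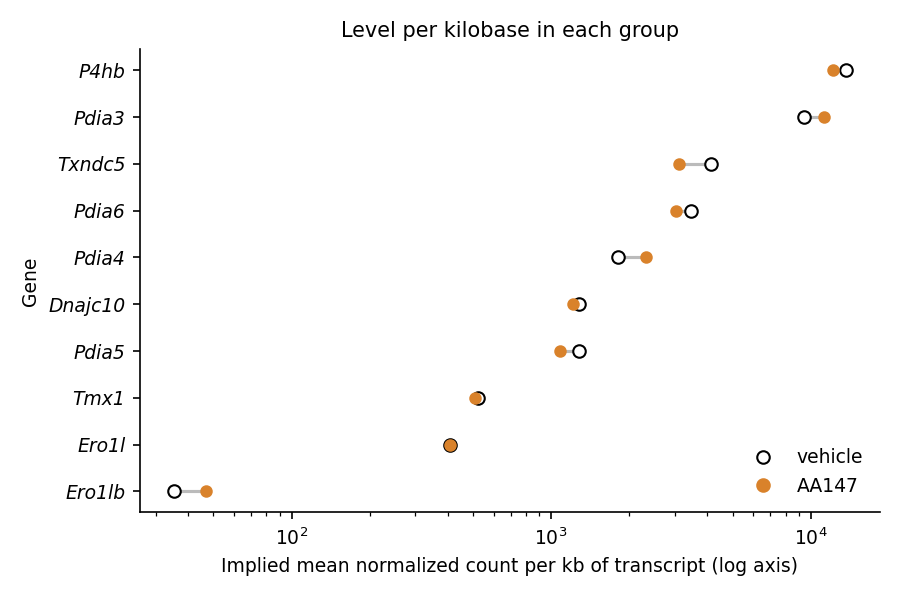
Implied mean normalized count per kilobase of canonical transcript (log axis) of each member, with vehicle as open circles and AA147 as filled circles; no error can be drawn for these implied levels. P4hb and Pdia3 stand at the top, at 12937 and 10314 over both groups, and Ero1lb at the bottom, at 41.1.

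Promoter sequences were examined because PDI genes are known to share elements of the unfolded protein response with ER chaperone genes. RefSeq windows of 250 bases before to 50 bases after the start site (assembly GRCm38.p6) were found for all 10 members, with Ero1l and Ero1lb listed as Ero1a and Ero1b and with 3 windows for Txndc5. Both strands were searched. The related genes given further on were searched too, except Erp27, Erp29, Tmx3 and Itpr1, for which no window was found. The ER stress element (ERSE) has the letters CCAAT and CCACG with any 9 bases between them. It was matched in full in 0.119% of the 32851 windows of the table, or 0.137% of their 27025 genes. Of the members, 2 held it, Pdia6 and Ero1lb. It was also matched in 3 genes whose proteins bind PDIs and whose values are given further on, the chaperones Hspa5, Canx and Calr. These 5 are shown so that genes with the same element can be compared. Hspa5, Pdia6 and Calr were called negative, and Canx and Ero1lb were not called. Each is written on the strand that reads CCAAT first, with the match in capitals.
Pdia6, chr12:17266471-17266529, plus strand: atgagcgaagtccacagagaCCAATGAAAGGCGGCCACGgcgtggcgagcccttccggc
Ero1lb, chr13:12565662-12565720, minus strand: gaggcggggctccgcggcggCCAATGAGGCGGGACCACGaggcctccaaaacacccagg
Hspa5, chr2:34772005-34772063, plus strand: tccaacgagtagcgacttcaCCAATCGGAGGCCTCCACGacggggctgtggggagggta
Canx, chr11:50325780-50325838, minus strand: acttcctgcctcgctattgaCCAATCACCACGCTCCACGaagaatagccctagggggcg
Calr, chr8:84847055-84847113, plus strand: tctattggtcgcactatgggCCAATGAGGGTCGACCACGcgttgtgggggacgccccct

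The Pdia6 match began 98 bases and that of Ero1lb 201 bases before the start site, the latter on the strand opposite to the gene. Allowing 1 mismatch in the fixed letters was a choice made after the exact matches were seen. It added Pdia3 and Pdia4 and raised the count to 4 members, against 1.5% of all windows and 1.72% of genes. Among the related genes it added Pdia2, Erp44 and Sel1l. The 250 bases before the Pdia4 start are shown because Pdia4 had the largest fold change of the positive members that were called. They hold 3 copies of CCAAT, counted on both strands and set in capitals here, and 2.79% of all windows had at least as many in this stretch. This count was not planned, and the other members were not compared by it.
Pdia4, chr6:47813513-47813762, minus strand: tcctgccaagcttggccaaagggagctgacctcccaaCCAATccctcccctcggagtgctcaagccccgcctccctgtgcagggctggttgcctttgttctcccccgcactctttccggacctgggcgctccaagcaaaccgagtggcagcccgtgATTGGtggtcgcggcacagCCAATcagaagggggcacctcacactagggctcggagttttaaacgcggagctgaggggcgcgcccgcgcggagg

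The unfolded protein response element (UPRE, TGACGTGG), a sequence known to be bound by ATF6 and XBP1, was matched in 0.676% of all windows, or 0.714% of genes. It was matched in 1 member, Txndc5, in the last of its 3 windows and in no other. Txndc11, a thioredoxin-fold gene outside the members, also held it. The stretches below lie within the RefSeq span of their own gene. Both are shown because these genes had the lowest fold change of the members and of the other thioredoxin-fold genes tested. Of those other genes Erp29 was called negative too, but it had no window to search. The pair was picked by these values, so it tests nothing about the element. The other members called negative, P4hb, Pdia5 and Pdia6, held no copy of the UPRE. Neither did Calr, Hspa5, P4ha1 and P4ha3 of the related genes, also called negative. The match is in capitals.
Txndc5, chr13:38528034-38528063, minus strand: ggcctcgccgcTGACGTGGcgctagccgcc
Txndc11, chr16:11134616-11134645, minus strand: tgaagtgtggcTGACGTGGagagtccgggt

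The antioxidant response element (ARE, TGACNNNGC), known for binding NRF2, was matched in 12.4% of all windows, or 14.0% of genes. It was matched in 3 members, Pdia3, Tmx1 and Txndc5, of which Pdia3 was called positive, Txndc5 negative and Tmx1 neither. Of the related genes, Txndc11, Calr, P4ha1, Tmx4 and Agr3 held it. Txndc11, Calr and P4ha1 were called negative, Tmx4 was not called, and Agr3 had no value. In Txndc5 the ARE overlapped the UPRE, since both matches began at the same base. The match of Pdia3 is shown because Pdia3 was a positive member, and its last base is the first of the single-mismatch ERSE that follows.
Pdia3, chr2:121413855-121413883, plus strand: cgacgctgcgTGACGCAGCcaatcggcgg
The amino acid response element (CARE, TGATGNAAN) was matched in 3.95% of all windows, or 4.5% of genes. It was matched in 1 member, Txndc5, in another of its windows. The ERSE-II (ATTGG, any base, then CCACG) was matched in 0.0365% of all windows, or 0.0444% of genes, and in 0 members. P4hb, Pdia4, Pdia5, Dnajc10 and Ero1l held none of these 5 motifs in full. A match describes letters in these windows and shows no binding.

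**Figure D2:**
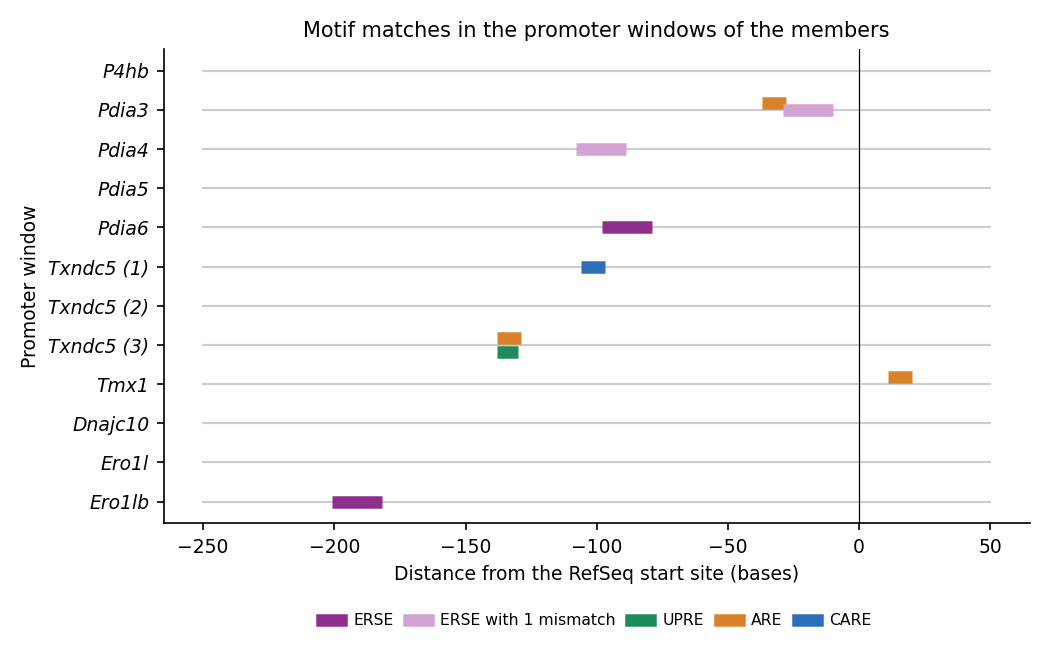
Motif matches on either strand in the RefSeq promoter windows of the members, by distance in bases from the start site; coloured blocks are the matches, and Txndc5 has 3 windows. Full ERSE matches stand in Pdia6 and Ero1lb, and the windows of P4hb, Pdia5, Dnajc10 and Ero1l are empty, as is the second of Txndc5.

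AA147 against vehicle split the soluble PDI genes by sign. All 6 were called, Pdia4 and Pdia3 positive, and Txndc5, Pdia5, Pdia6 and P4hb negative, while the membrane PDI Tmx1, the reductase Dnajc10 and both ERO1 oxidases were not called. Thus 6 of 10 members were called, beside 20.2% of all genes tested. Of the 9 members whose mean reached 1000, 6 were called, beside 28.4% of the 5895 genes that abundant. In size, 0 of 10 members reached an absolute log2 fold change of 0.5, which 12.2% of tested genes of any abundance did. That share was not taken for genes whose mean reached 1000, as that of 9 members did, so these figures are not alike. With the sign ignored, however, the members had a median of 0.21. That of all tested genes was 0.16, and that of tested genes whose mean reached 1000 was 0.12. With the sign kept, the median log2 fold change of the members was -0.06, beside 0.01 over all genes tested.

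Pdia4, an ER-resident PDI often found with the chaperone BiP, had an implied level of 9986 normalized counts with vehicle and 12732 with AA147. The log2 fold change was 0.35 (SE 0.060, 95% interval 0.23 to 0.47, adjusted p 1.24e-07 by the authors' deposited table), a level 27.5% higher. Of all genes tested, 91.3% had a lower fold change than Pdia4. Pdia3 had an implied level of 34535 normalized counts with vehicle and 41378 with AA147. Its log2 fold change in the authors' deposited table was 0.26 (SE 0.060, 95% interval 0.14 to 0.38, adjusted p 0.000185), or 19.8% higher. The intervals of Pdia4 and Pdia3 overlapped, so the order of this pair is within their error. Tested against changes of up to 0.2 in size rather than against 0, neither was called (adjusted p 0.192 for Pdia4 and 1 for Pdia3). A Bonferroni adjustment ended the call of Pdia3 (adjusted p 0.166) but not that of Pdia4.

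Txndc5, also known as ERp46, a PDI linked to rapid introduction of disulfides, had the lowest value of the members. Its implied level was 11757 normalized counts with vehicle and 8872 with AA147. In the authors' deposited table its log2 fold change was -0.41 (SE 0.054, 95% interval -0.51 to -0.30, adjusted p 3.18e-12), and by that fold change the level fell by 24.5%. It was the sole member still called against changes of up to 0.2.

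The other 3 negative PDIs moved less. Pdia5 had implied levels of 2324 normalized counts with vehicle and 1969 with AA147. Its log2 fold change in the authors' deposited table was -0.24 (SE 0.081, 95% interval -0.40 to -0.08, adjusted p 0.0210). Pdia6, a PDI known to bind BiP and to act on the stress sensor IRE1, went from 11501 with vehicle to 10126 normalized counts with AA147. Its log2 fold change was -0.18 (SE 0.062, 95% interval -0.30 to -0.06, adjusted p 0.0191 by the authors' deposited table). These 2 calls were lost at the stricter limit of 0.01, under Bonferroni, and against changes of up to 0.2.

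P4hb, the most abundant member, had implied levels of 40261 normalized counts with vehicle and 35808 with AA147. The authors' deposited table gave a log2 fold change of -0.17 (SE 0.049, 95% interval -0.27 to -0.07, adjusted p 0.00524). Once a trend of fold change on transcript length, GC content and mean was subtracted, the value was -0.08 and the call was lost (adjusted p 0.280), as it was with a Bonferroni adjustment and against changes of up to 0.2. The interval of Txndc5 did not overlap that of P4hb but did overlap those of Pdia5 and, narrowly, Pdia6. No interval of the 4 negative PDIs overlapped an interval of Pdia3 or Pdia4. Members were measured in the same libraries, and differences between genes were not tested.

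**Figure D3:**
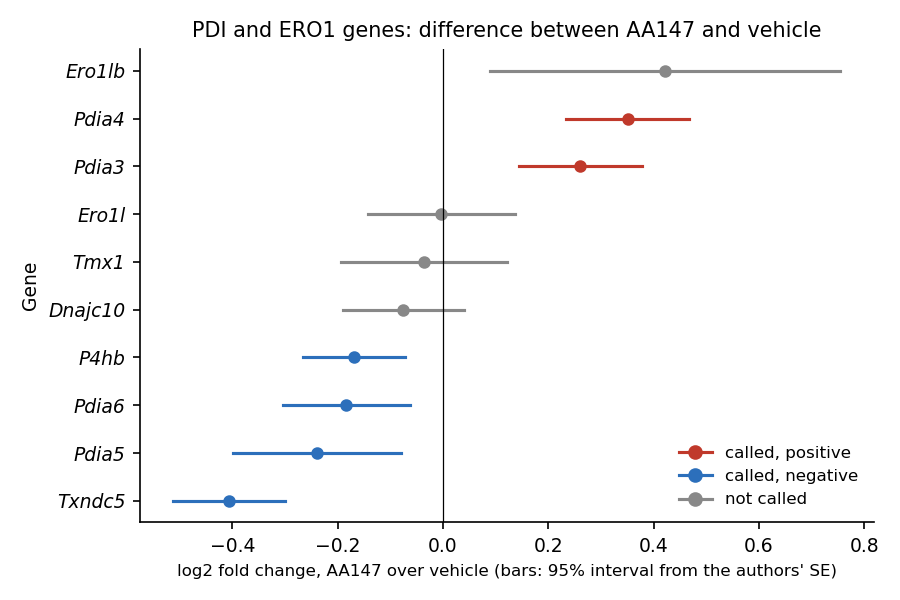
Log2 fold change of AA147 over vehicle for each member in the authors' deposited table (points) with a 95% interval from the authors' SE (bars), in red and blue where called positive and negative and in grey where not called. Pdia4 and Pdia3 lie at 0.35 and 0.26, and the 4 called negative PDIs between -0.17 and -0.41.

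The implied level per kilobase summed over the 10 members was 36005 normalized counts with vehicle and 35161 with AA147. Pdia3 held 26.1% of that sum with vehicle and 32.0% with AA147, while P4hb held 38.0% and 34.6%. The ratio of Pdia3 to P4hb per kilobase was 0.685 with vehicle and 0.923 with AA147. That of Pdia4 to Txndc5 per kilobase was 0.439 with vehicle and 0.743 with AA147, the widest separation among the called members, at 0.76 on the log2 scale. These shares and ratios are given without an error, because it would need the values of single libraries.

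Tmx1 encodes a membrane-anchored PDI of the ER that acts on membrane-bound proteins. Its implied levels were 1461 normalized counts with vehicle and 1425 with AA147, and its log2 fold change in the authors' deposited table was -0.04 (SE 0.080, 95% interval -0.19 to 0.12, adjusted p 0.820). Dnajc10, known as ERdj5, is a reductase that cuts disulfides of proteins bound for degradation. It stood at 5348 normalized counts with vehicle and 5076 with AA147, with a log2 fold change of -0.08 (SE 0.059, 95% interval -0.19 to 0.04, adjusted p 0.416 by the authors' deposited table). For both genes the interval includes 0 and lies within 0.2 of it.

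Ero1l, the widely expressed oxidase, was level between the groups, at 1806 normalized counts with vehicle and 1802 with AA147. The log2 fold change was -0.003 (SE 0.071, 95% interval -0.14 to 0.14, adjusted p 0.985 by the authors' deposited table). Ero1lb, the form known from secretory tissues such as the pancreas, had implied levels of 151 normalized counts with vehicle and 202 with AA147. It had the highest value of the members in the authors' deposited table, a log2 fold change of 0.42, but also the largest error (SE 0.170, 95% interval 0.09 to 0.75), and was not called (adjusted p 0.0607). At its SE an estimate of 0.44 would have been the smallest to be called, against 0.13 to 0.21 for the other 9 members, so an estimate of the size seen in Pdia4 would not have been called for Ero1lb. The SEs of the members were ordinary for their abundance, from 0.841 to 1.09 times the median SE of up to 100 genes on either side by mean. For P4hb and Pdia3, near the top of the range, fewer genes lay above.

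**Figure D4:**
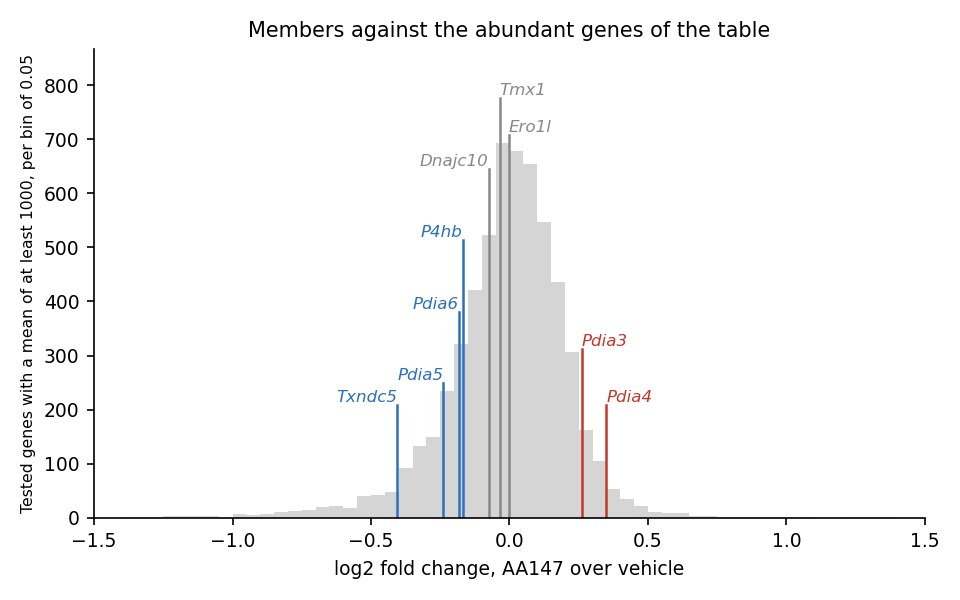
Number of tested genes with a mean of at least 1000, per bin of 0.05 of log2 fold change of AA147 over vehicle (grey bars), with the 9 members of that abundance as labelled lines whose height has no meaning. Txndc5, at -0.41, and Pdia4, at 0.35, lie on either flank of the bulk, and Ero1l, Tmx1 and Dnajc10 lie within it.

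Single-gene values can be blurred where transcripts overlap, since the libraries were not stranded. In the GENCODE M39 annotation, exons on the opposite strand covered 558 (Ell3), 491 (Serinc4) and 431 (Catsper2) bases of the Pdia3 transcript of 3680 bases. Catsper2 had a mean of 30.0 and Serinc4 one of 8.10 in the authors' deposited table, against 37956 for Pdia3, and Ell3 was not found there. Gm57341 covered 408 bases of P4hb, Atp6v1c2 365 of Pdia6, Bmp6 226 of Txndc5, Gm31834 another 71 of Txndc5, and Gm63484 134 of Ero1l. Of these, Gm31834 had a mean of 11.6 and the others were not found among the deposited genes. Ero1lb shared 921 bases at 98.0% identity with the transcript of Gm18562, so its value is uncertain.

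Related genes were read from 3 lists. The first held 14 other thioredoxin-fold proteins of the ER, of which Pdia2, Pdilt, Agr2 and Agr3 were not found in the table and Erp27 had no adjusted p at a mean of 1.66. Of the 9 tested, 2 were called, both negative. This share of 22.2% was close to the 20.2% of all genes tested. The median log2 fold change of the 9 was -0.06. Txndc11, a membrane protein of this fold that carries the UPRE shown above, had a log2 fold change of -0.60 (SE 0.074, adjusted p 3.53e-14 by the authors' deposited table). Erp29, a PDI relative that lacks the active-site cysteine pair, had -0.31 (SE 0.068, adjusted p 6.35e-05 by the authors' deposited table). Erp44, which retains ERO1 proteins in the early secretory pathway, had a value of -0.16 (SE 0.086, adjusted p 0.186 by the authors' deposited table). The membrane PDIs Tmx2, Tmx3 and Tmx4, like Tmx1, were not called, with log2 fold changes of 0.04, 0.19 and -0.06 in the authors' deposited table. Txndc12, Txndc15 and Txndc16 were not called either, with log2 fold changes of -0.06, 0.09 and -0.26 in the authors' deposited table. After subtraction of the trend described for P4hb, Erp44 and Txndc16 were called negative as well, 4 genes in all.

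The second list held 7 genes of other routes to disulfides: the ER peroxidases Prdx4, Gpx7 and Gpx8, which use hydrogen peroxide, the sulfhydryl oxidases Qsox1 and Qsox2, and Vkorc1 and Vkorc1l1 of the vitamin K cycle. By the DESeq2 p-values in the authors' deposited table, none (0 of 7) was called, beside 20.2% of all genes, and 3 had an unadjusted p under 0.05, beside 30.6% of all genes tested. Their median log2 fold change was -0.12. Prdx4, the most abundant of them per kilobase at 7371 normalized counts, had a log2 fold change of -0.09 (SE 0.056, 95% interval -0.20 to 0.02, adjusted p 0.259 by the authors' deposited table). In the authors' deposited table Gpx7 had the highest value of these genes, 0.34 (SE 0.168, adjusted p 0.149), and Vkorc1 the lowest, -0.22 (SE 0.102, adjusted p 0.120). Gpx8, Qsox1, Qsox2 and Vkorc1l1 had log2 fold changes of -0.15, -0.12, 0.05 and -0.13 in the authors' deposited table. Gpx8 was called negative once the trend was subtracted.

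The third list held 10 binding partners of the members, of which 4 were called negative and 1 positive, beside 11.1% and 9.05% of all genes tested. Their median log2 fold change was -0.02, beside 0.01 over all genes. The alpha subunits that join P4hb in collagen prolyl 4-hydroxylase differed among themselves. P4ha3 had a log2 fold change of -0.84 (SE 0.109, adjusted p 5.23e-13) and P4ha1 one of -0.44 (SE 0.055, adjusted p 2.45e-14 by the authors' deposited table). P4ha2 lay at -0.003 (SE 0.066, 95% interval -0.13 to 0.13, adjusted p 0.984 by the authors' deposited table). The 4 fibroblast markers, 3 of them collagen chains, were called negative, as P4ha1, P4ha3 and P4hb were and P4ha2 was not. The markers had log2 fold changes from -0.97 to -1.52, beside -0.17 for P4hb. The part of the markers in these values was not tested. Mttp, which pairs with P4hb in the lipid transfer complex, was positive at 0.88 (SE 0.255, adjusted p 0.00488 by the authors' deposited table), at a mean of 84.0. That call was lost with a Bonferroni adjustment and against changes of up to 0.2.

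Calr and Canx are the lectin chaperones that Pdia3 works with. Calr had a log2 fold change of -0.17 (SE 0.062, adjusted p 0.0370) and Canx one of 0.01 (SE 0.056, adjusted p 0.914 by the authors' deposited table), beside 0.26 for Pdia3. The call of Calr was lost at the limit of 0.01, under Bonferroni, against changes of up to 0.2 and after subtraction of the trend. Hspa5, the chaperone BiP and partner of Dnajc10 and Pdia6, stood at -0.80 (SE 0.061, adjusted p 9.89e-37 by the authors' deposited table), beside 0.35 for Pdia4. The 5 genes shown above with a full ERSE therefore ranged from -0.80 for Hspa5 over -0.18 for Pdia6 and -0.17 for Calr, all called, to 0.01 for Canx and 0.42 for Ero1lb, neither of them called. Edem1 and Sel1l of ER-associated degradation, and Itpr1, a calcium channel, had log2 fold changes of 0.13, 0.10 and -0.04 in the authors' deposited table and were not called.

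**Figure D5:**
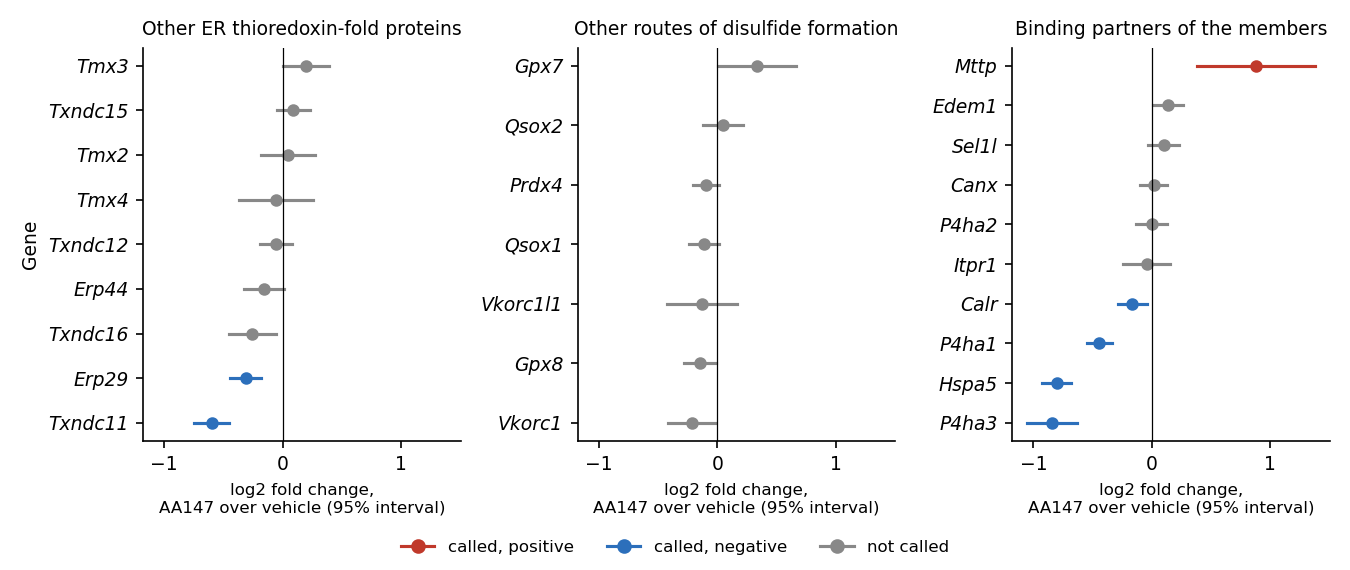
Log2 fold change of AA147 over vehicle in the authors' deposited table (points) with a 95% interval (bars) for the tested genes of the 3 related lists, coloured red and blue where called positive and negative and grey where not called. In the middle panel 0 of 7 genes are coloured, and in the right panel Hspa5 and P4ha3 lie lowest, at -0.80 and -0.84.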

How the data were processed

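RNA was sequenced as non-stranded mRNA libraries, per the labels' protocols. Per the submitters' processing notes DESeq2 was used and the build mm9 is named. The aligner, counter and annotation are not given in the sources used here. The authors deposited, per the file headers, a mean normalized count (a signal), a log2 fold change with SE, a test statistic (a score), and p-values before and after adjustment. The adjusted values equalled a Benjamini-Hochberg adjustment over 13597 genes within 7.6e-07, and 2875 genes had none.

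The members and lists were chosen with earlier results of these data known. Every member and every gene of the lists is named, with its values where tested. No genes of similar pattern were sought, since 1 contrast gives none. Intervals assume a normal error of the authors' SE. Lengths came from canonical GENCODE M39 transcripts (GRCm39), matched by symbol or RefSeq synonym for all 10 members, and promoters from RefSeq (GRCm38.p6). The trend on length, GC content and mean was fitted to 10092 genes by robust regression, squares included. Depth per library is unknown. The code for the recomputed p-values, though not the authors' own calls, was tested on simulated data. Tools were statsmodels 0.14.6, SciPy 1.17.1, pandas 2.3.3, minimap2 for similar transcripts, and Python 3.11.15.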

Additional observations from a re-analysis of the deposited data

How the results depend on the processing

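No paired analysis was possible because 1 line per gene carries nothing for single libraries, and leaving out each replicate was not run for the same reason. Of 2 positive and 4 negative members, an adjusted p under 0.01 left 2 negative, a Bonferroni adjustment 1 positive (Pdia4) and 1 negative (Txndc5), and a null interval of 0.2 in log2 left 0 positive and 1 negative (Txndc5). These settings are stricter by construction. Centring on abundant or reference genes moved values by at most 0.0132 and changed no count of members or of the related lists by over 1.5 times. With the trend subtracted, 4 other thioredoxin-fold genes were called negative in place of 2, and 1 gene of the other disulfide routes in place of 0. The cause was not tested. The null interval left 1 such thioredoxin-fold gene. The 1 positive partner, Mttp, gave 0 under Bonferroni, the null interval, and the 2 settings limited to a mean of at least 100, which leave it out. The partners' mean was -0.12 against a median of -0.02. No member changed sign under any of these settings.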
